A study of Mus musculus with 24 samples.

Results

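The E12.5-only regions are stretches of mouse chromatin that carried an ATAC-seq peak in both E12.5 libraries of the mandibular process (E marks the embryonic day) and in none of 6 libraries of cartilage at E14.5. They were found by merging all peaks of the 8 ATAC lists on the autosomes and X into 157305 regions and keeping those with a peak in 2 of 2 E12.5 lists, 0 of 3 lists of Meckel's cartilage (MC) and 0 of 3 lists of forelimb cartilage (FL). The rule left 1536 regions, or 0.976% of all regions, with a median width of 1034 bp and 1.82 Mb in total. The regions were chosen by the presence and absence of peaks in these 8 lists. Their peaks at E12.5 and lack of peaks at E14.5 are thus a description here and were not tested.

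All libraries came from wild-type C57BL/6 embryos. For the E12.5 samples the mandibular processes were cut from the heads and digested to single cells, so they hold every tissue of the early lower jaw, whereas the E14.5 samples are dissected Meckel's cartilage and dissected forelimb cartilage. H3K27ac, a histone mark of active enhancers and promoters, was profiled by CUT&Tag at E14.5, with 3 libraries of MC and 3 of FL, and in no E12.5 library analysed here. Whether a replicate is 1 embryo or a pool is not stated in the labels, and the description field of the E12.5 samples names another stage and assay, so their titles and protocols were followed. Stage and tissue makeup changed together between the E12.5 and the E14.5 samples and cannot be told apart, nor can fewer cells of a type be told from less accessibility per cell.

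ATAC-seq marks chromatin that a transposase can enter, mainly promoters and enhancers. The mandibular process is a bud of cranial neural crest mesenchyme wrapped in epithelium, with ingrowing nerves, vessels and muscle precursors. Part of its mesenchyme condenses into Meckel's cartilage, the rod on which the lower jaw is built. Enhancers used by progenitors commonly lose accessibility as cells differentiate, and promoters tend to stay open across cell types.

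Few E12.5-only regions lay at promoters. Of 21045 RefSeq windows of 300 bases, from 250 bases before to 50 bases after a start site, 30 windows of 23 genes overlapped one. The 4 windows below lay wholly inside an E12.5-only region, as did windows of other genes that are not shown. They were chosen after their values were seen, because their genes are typical of a cell type other than cartilage. Lamb3 encodes a laminin chain of epithelial basement membranes, Cldn7 an epithelial tight junction protein, Mb the muscle oxygen store myoglobin, and Grid2ip a protein that binds a glutamate receptor in neurons. The Lamb3 region had an E14.5 ATAC peak 110 bp away and lay in the authors' combined H3K27ac lists of both cartilages. The Mb region lay in the FL list alone, and those of Cldn7 and Grid2ip in neither. The Cldn7 and Mb regions include the gene's 5′ end, while those of Lamb3 and Grid2ip lay beyond 1 kb of either gene end. The windows are RefSeq sequences of GRCm38.p6, the assembly called mm10 in the peak lists, read 5′ to 3′ along the gene's strand. Matches to the searched motifs are in capitals.
Lamb3, chr1:193301993-193302292, plus strand: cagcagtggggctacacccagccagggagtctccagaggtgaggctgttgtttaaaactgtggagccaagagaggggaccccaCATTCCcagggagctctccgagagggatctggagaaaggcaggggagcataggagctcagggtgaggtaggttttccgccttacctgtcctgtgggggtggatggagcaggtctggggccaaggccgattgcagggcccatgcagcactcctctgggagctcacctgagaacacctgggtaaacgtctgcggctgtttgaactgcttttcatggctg
Cldn7, chr11:69965171-69965470, plus strand: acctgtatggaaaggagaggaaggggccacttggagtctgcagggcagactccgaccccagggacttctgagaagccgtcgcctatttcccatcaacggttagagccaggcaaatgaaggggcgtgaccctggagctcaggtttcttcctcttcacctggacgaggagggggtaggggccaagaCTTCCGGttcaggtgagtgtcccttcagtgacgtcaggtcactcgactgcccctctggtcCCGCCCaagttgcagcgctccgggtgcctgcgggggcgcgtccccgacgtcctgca
Mb, chr15:77050619-77050918, minus strand: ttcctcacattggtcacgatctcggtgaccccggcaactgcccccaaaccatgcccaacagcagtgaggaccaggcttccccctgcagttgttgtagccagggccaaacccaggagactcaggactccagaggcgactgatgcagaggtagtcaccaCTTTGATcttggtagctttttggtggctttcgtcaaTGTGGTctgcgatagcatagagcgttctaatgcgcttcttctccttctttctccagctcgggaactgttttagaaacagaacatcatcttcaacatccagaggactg
Grid2ip, chr5:143369824-143370123, plus strand: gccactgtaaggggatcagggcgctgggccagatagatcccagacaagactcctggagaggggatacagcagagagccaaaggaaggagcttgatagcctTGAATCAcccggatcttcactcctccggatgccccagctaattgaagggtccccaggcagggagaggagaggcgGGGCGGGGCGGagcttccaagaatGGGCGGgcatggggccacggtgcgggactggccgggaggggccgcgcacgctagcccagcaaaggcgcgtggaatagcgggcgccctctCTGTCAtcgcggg

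In Lamb3 the capitals mark the TEAD motif CATTCC. Cldn7 holds the ETS motif CCGGAAG, read on the other strand, and the SP-KLF motif GGGCGG, also on the other strand. Mb holds the LEF-TCF motif CTTTGAT and the RUNX motif TGTGGT, and Grid2ip the AP-1 motif TGANTCA, overlapping SP-KLF matches and the MEIS motif CTGTCA. Each motif was searched on both strands, and a match is a description of letters, not a bound site. SP-KLF stood in 9 of the 30 windows (30.0%), in 69.6% of the windows in regions open in all 8 lists and in 46.7% of all 21045 windows. TFAP2, searched as GCCNNNGGC, stood in 1 of the 30 windows (3.33%), in 27.2% of the always open windows and in 20.1% of all windows. MEIS stood in 7 of the 30 windows (23.3%) and in 18.3% of all windows. The 30 windows had a median of 7 CpG dinucleotides, against 22 in the always open windows and 13 in all windows, and a median GC content of 57.7%, against 62.3% and 56.7%. The promoters in E12.5-only regions thus held fewer CpG than the promoters that were open throughout, with neighbouring windows of 1 gene sharing bases.

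The 2 E12.5 libraries differed from each other, and the size of the class rests on both. The replicate 1 list held 74706 peaks over 85.6 Mb with 0.778% of its peaks on X, and the replicate 2 list held 70042 peaks over 48.2 Mb with 2.02% on X. The 6 E14.5 lists held 43205 to 70636 peaks over 40.7 to 53.0 Mb, with 1.40% to 1.98% on X, so replicate 1 stood apart by its cover and its share on X. The bases covered by both E12.5 lists made up 19.8% of the bases covered by either. The E12.5-only regions took 2.09% of the peaks of replicate 1 and 2.23% of those of replicate 2. The remainder of each list lay mostly elsewhere: 31438 regions had a peak in the replicate 1 list alone and 15286 in the replicate 2 list alone. Read depth is unknown, and the length of a list depends on it.

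Markers of the mandible were open in both E12.5 libraries. Of 8 genes of mandibular mesenchyme, all 8 had a peak within 1 kb of a gene end in both E12.5 lists, against 6, 8 and 8 in MC and 7, 7 and 7 in FL. Of 6 epithelial markers, 5 had one in both E12.5 lists, against 2, 4 and 3 in MC and 1, 4 and 2 in FL. Of 6 chondrocyte markers, 5 and 4 had one in the E12.5 lists, against 6, 5 and 6 in MC and 5, 5 and 4 in FL. Muscle markers counted 3 and 3 of 4 at E12.5, against 2, 1 and 2 in MC and 3, 2 and 2 in FL, and blood markers 1 of 4 in every list. The E12.5 replicates differed in 4 limb mesenchyme markers, with 4 in replicate 1 and 1 in replicate 2, against 1, 1 and 2 in MC and 4, 4 and 2 in FL. They also differed in 4 endothelial markers, with 3 in replicate 1 and 1 in replicate 2, against 3, 1 and 1 in MC and 2, 1 and 1 in FL. The part of epithelium, muscle and other tissues in the E12.5-only regions was not tested.

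Few of the regions shared by the E12.5 libraries lacked a peak in all 6 E14.5 lists. Of 25716 regions with a peak in both E12.5 lists, 15788 also had a peak in all 6 E14.5 lists, and the 1536 E12.5-only regions made up 5.97%. Between these ends, 1439 regions had a peak in 1 E14.5 list, 1353 in 2, 1425 in 3, 1731 in 4 and 2444 in 5. The regions just outside the rule, with a peak in 1 E14.5 list, were held there by weak peaks: their E14.5 peaks had a median score of 267, and 200 is the lowest score in any list. When every list was cut to its 43205 best peaks, the length of the shortest, 328 regions met the rule.

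**Figure D1:**
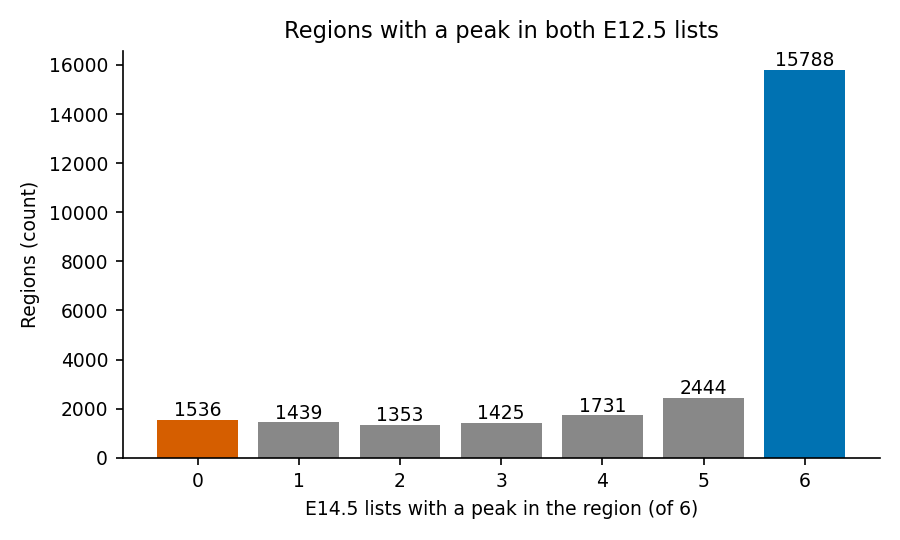
Number of regions with a peak in both E12.5 lists (vertical axis) by the number of E14.5 lists, out of 6, that also had a peak there (horizontal axis). The E12.5-only regions are the 1536 at 0, and the 15788 regions at 6 were open in all 8 lists.

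E12.5-only regions leaned to the weaker peaks of both E12.5 libraries, far more so in replicate 2 than in replicate 1. The authors' peak score is comparable within a list only. It had a median of 331 in replicate 1 (200.2 to 3657) and of 264 in replicate 2 (200.1 to 1861) in the E12.5-only regions, against 747 and 1620 in the regions open in all 8 lists. In rank, where 0% is the best peak of a list, the median E12.5-only region stood at 58.0% in replicate 1 and at 74.6% in replicate 2. Below the median rank of the list were 903 regions (58.8%) in replicate 1 and 1272 (82.8%) in replicate 2, and 84 regions (5.47%) ranked above the median in both.

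The replicates did not order the E12.5-only regions alike. Across the 1536 regions Spearman's rho between the scores of the replicates was -0.11, against 0.54 across the 15788 regions open in all 8 lists, given as a description since regions are not independent. The summits of the 2 peaks lay a median of 251.5 bp apart in the E12.5-only regions, against 87.0 bp in the always open regions, and were within 200 bp in 42.1% against 69.3%. Replicate 1 gave the wider peaks in the E12.5-only regions, with medians of 889 bp in replicate 1 and 487 bp in replicate 2. The 1439 regions with a peak in 1 E14.5 list were similar, so these traits are not particular to the E12.5-only regions. There rho was -0.17, the summits lay a median of 281 bp apart and 41.4% were within 200 bp. Their median widths were 915 bp in replicate 1 and 510 bp in replicate 2.

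**Figure D2:**
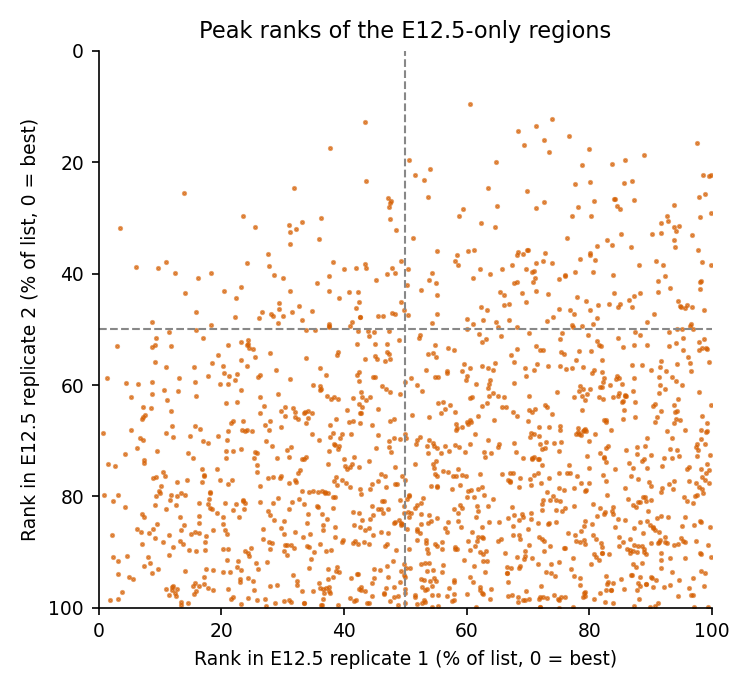
Rank of the peak of each of the 1536 E12.5-only regions in the list of E12.5 replicate 1 (horizontal axis) and of replicate 2 (vertical axis), in percent of the list with 0 the best, and dashed lines at the median of each list. The points gather at the weak end of replicate 2 and show no common order, and 84 lie above both medians, at the top left.

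The authors' combined lists, made for each tissue and stage, treated most E12.5-only regions as the rule did. The combined E12.5 list held 1306 of the 1536 regions (85.0%, 95% Wilson interval 83.2% to 86.7%, which like all such intervals here covers counting error over regions only). The same list held 99.8% of the always open regions, 90.6% of the regions with a peak in 1 E14.5 list and 31.0% of all regions. The combined MC list held 1 E12.5-only region and the combined FL list held 1. These lists draw on the same libraries as the rule and so are no independent evidence.

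E12.5-only regions often lay within a few kb of an E14.5 peak. The nearest E14.5 peak was a median of 1996 bp from an E12.5-only region (quartiles 675 to 5394 bp). The median was 2013 bp for regions in the replicate 1 list alone and 6053 bp for regions in the replicate 2 list alone. The distance was thus close to that of replicate 1 alone. Of the E12.5-only regions 503 (32.7%) had an E14.5 peak within 1 kb, while 17 had none within 50 kb. Another E12.5-only region lay within 50 kb of 445 regions (29.0%). The shares of 32.7% and 29.0% have no comparison class here. Both lists had 1 peak in the region for 1484 of the 1536.

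The strongest E12.5-only regions, ranked by the worse of their 2 ranks, included 6 inside genes and 4 between genes. First stood a region of 2565 bp inside Ptprf, a receptor tyrosine phosphatase of cell adhesion, at chr4:118228375-118230939 in mm10, with scores of 989 in replicate 1 and 773 in replicate 2. Its worse rank was 25.6%, the nearest E14.5 peak was 880 bp away, and both combined H3K27ac lists covered it at E14.5. Next were Gpr182, a receptor of endothelium, with 694 and 666 at a region that includes a gene end, and Micall2, an actin and junction regulator, with 564 and 628. Wwc1, the Hippo pathway protein KIBRA, had 654 and 621. Xkr7 had 1987 and 618, the highest replicate 1 score among the 10. Slc29a3, a nucleoside transporter, had 548 and 615. The other 4 of the 10 lay outside genes and are named by the nearest: Plekha5 at 155432 bp, Pde3a at 275061 bp, Asb1 at 99787 bp and Rplp1 at 96848 bp. All 10 were in the combined E12.5 list.

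Most E12.5-only regions were distal. A RefSeq gene end lay within 1 kb of 157 regions (10.2%, 8.80% to 11.8%), against 65.3% of the regions open in all 8 lists, 3.35% of the 686 regions with a peak in all 6 E14.5 lists and neither E12.5 list, and 13.7% of all regions. A RefSeq start site lay within 1 kb of 56 regions (3.65%), against 57.2% of the always open ones and 9.23% of all regions. A further 80 regions (5.21%) lay near a 3′ gene end and no start site, against 2.27% of the always open regions and 3.15% of all regions. Their centre was inside a gene in 949 cases (61.8%), against 73.2% of the always open regions and 56.9% of all regions. Exons and introns were not separated, since only gene spans were used.

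In gene ends and gene density, the E12.5-only regions lay closer to the replicate 1 list than to the replicate 2 list. Near a gene end lay 10.2% of them, against 10.7% of regions in the replicate 1 list alone and 3.28% of regions in the replicate 2 list alone. At 3′ ends without a start site the shares were 5.21%, against 6.01% for replicate 1 alone and 1.24% for replicate 2 alone. A median of 14 protein-coding genes lay within 500 kb on either side of an E12.5-only region, against 16 for replicate 1 alone, 5 for replicate 2 alone and 10 for all regions.

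On X were 3 of the 1536 regions (0.195%, 0.0664% to 0.573%), against 0.226% for replicate 1 alone, 2.36% for replicate 2 alone, 2.38% of the always open regions and 1.25% of all regions. Chromosome 11 held 10.4% of E12.5-only regions, against 10.4% for replicate 1 alone, 4.28% for replicate 2 alone and 6.77% of all regions. Chromosome 3 held 2.08%, against 1.52%, 6.92% and 4.89% in the same order. Without replicate 1, the 17355 regions with a peak in replicate 2 and no E14.5 list lay near a gene end in 4.03%. Without replicate 2, the share was 10.7% of 33185 regions.

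**Figure D3:**
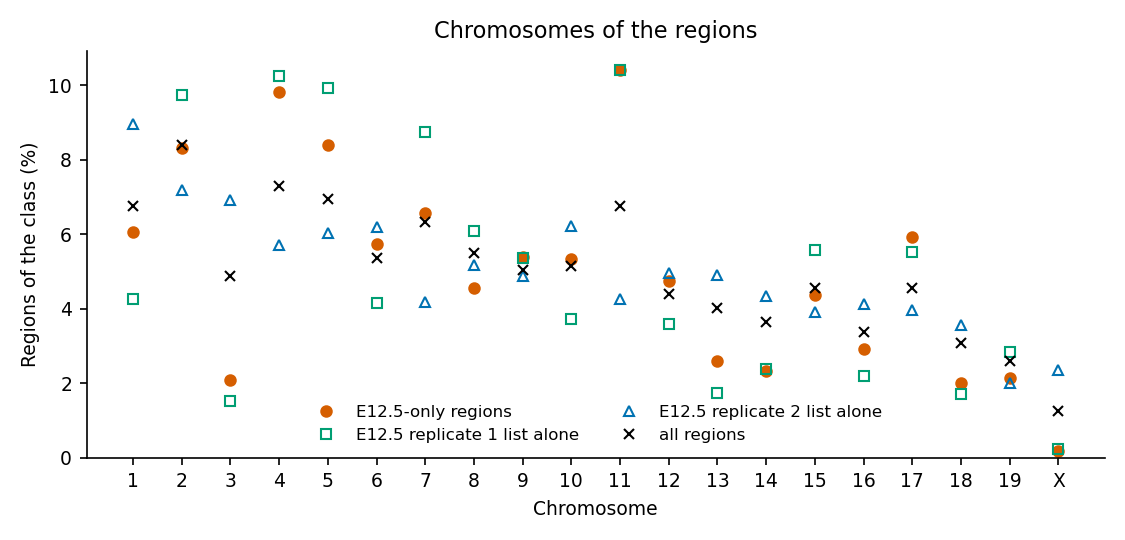
Share of regions on each chromosome (percent of the class, vertical axis) for E12.5-only regions, regions in the E12.5 replicate 1 list alone, regions in the E12.5 replicate 2 list alone and all regions. On chromosomes 2, 6, 8, 10, 12, 15 and 19 the E12.5-only regions lie nearer the replicate 2 symbols. On all other chromosomes, among them 3, 4, 11 and X, they lie nearer the replicate 1 symbols.

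H3K27ac at E14.5 was measured apart from the rule. Of the 1379 E12.5-only regions beyond 1 kb of a gene end, 890 (64.5%, 62.0% to 67.0%) lay in the authors' combined MC H3K27ac list and 888 (64.4%, 61.8% to 66.9%) in the combined FL list, although none had an ATAC peak in any E14.5 library. Of all distal regions, 52.0% lay in the MC list and 52.8% in the FL list. The distal regions open in all 8 lists were in these lists more often, at 83.0% in MC and 75.9% in FL, and so were those open at E14.5 alone, at 81.5% and 77.5%. Regions in the replicate 1 list alone stood at 64.1% in MC and 68.2% in FL, and those in the replicate 2 list alone at 27.7% and 29.2%. The combined lists have no replicates, so these differences carry no test. Their peaks are wide, with medians of 5511 bp in MC and 7356 bp in FL, and cover 408 Mb in MC and 454 Mb in FL.

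Like distal regions at large, the E12.5-only regions that met a combined H3K27ac list mostly met those of both cartilages. Of the 1379 distal regions 760 (55.1%) lay in both lists, 130 (9.43%) in MC alone, 128 (9.28%) in FL alone and 361 (26.2%) in neither. Of all distal regions 43.0% lay in both, 9.08% in MC alone, 9.83% in FL alone and 38.1% in neither. An E14.5 ATAC peak nearby went with the mark: among the 432 distal regions with such a peak within 1 kb, 80.6% were in the MC list and 76.6% in the FL list, against 57.2% and 58.8% of the 947 without one. Without E12.5 replicate 1 the distal shares were 32.2% in MC and 33.5% in FL, and without replicate 2 they were 64.2% and 68.1%, so leaving out replicate 1 moved them by over 1.5 times.

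**Figure D4:**
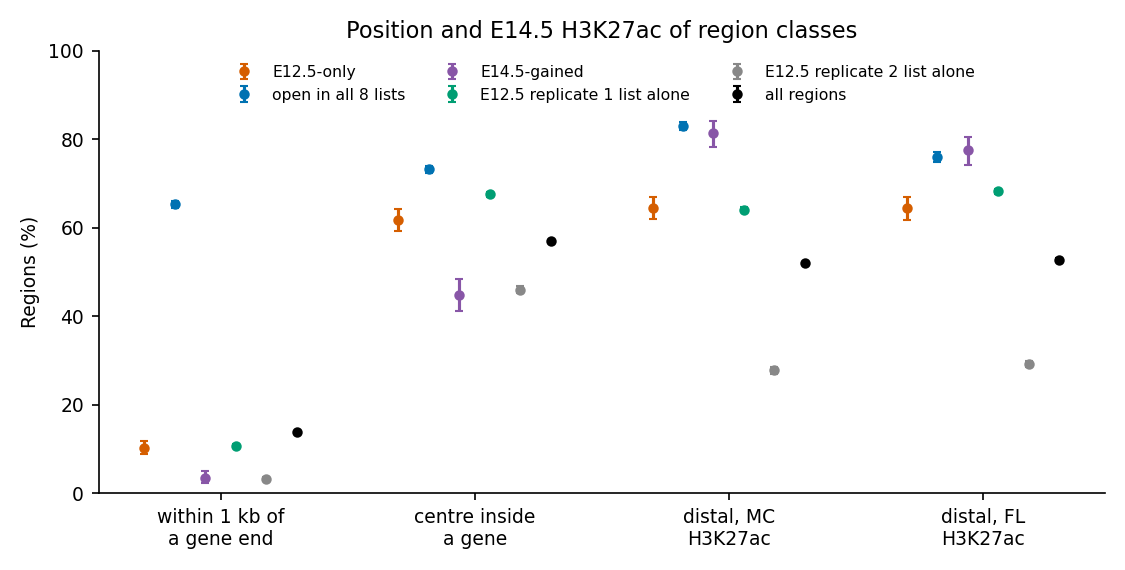
Percent of regions (vertical axis) within 1 kb of a gene end, with their centre inside a gene, and, for distal regions, in the authors' combined MC and FL H3K27ac lists, for E12.5-only regions and 5 other classes, with bars as 95% Wilson intervals. E12.5-only regions lie at 10.2%, 61.8%, 64.5% and 64.4%, near the replicate 1 list alone for gene ends and MC H3K27ac.

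The lists of single H3K27ac libraries, of 68477 to 75531 peaks each, met few regions at large and did not separate the cartilages. Their mean share was 3.09% of distal E12.5-only regions and 3.08% of all distal regions. The low share is thus not particular to the E12.5-only regions. The combined lists met far more of the distal E12.5-only regions, at 64.5% in MC and 64.4% in FL. The single-library lists overlapped 3.19%, 4.10% and 2.60% of the 1536 regions in the 3 MC libraries, against 3.19%, 2.80% and 2.99% in the 3 FL libraries. MC libraries averaged 3.30% ± 0.755 and FL libraries 2.99% ± 0.195 (SD, 3 libraries each), and the groups overlapped. The difference of 0.304 percentage points had a two-sided exact permutation p of 0.8, where 3 against 3 libraries cannot go below 0.1.

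Against the always open distal regions, the result depended on how overlap was counted. With any overlap, 3.09% ± 0.610 of distal E12.5-only regions and 7.57% ± 0.883 of distal always open regions were met (SD over 6 libraries), a difference of -4.47 points that was negative in 6 of 6 libraries (two-sided exact sign-flip permutation p 0.0312, the smallest that 6 libraries allow). The always open regions are wider, with a median of 2010 bp against 1034 bp. With the centre base alone, a choice added after the data were seen, the shares were 1.10% ± 0.351 and 2.49% ± 0.326 and the difference -1.39 points, again negative in 6 of 6 (exact p 0.0312). When the peaks had to cover at least 50% of the region the sign turned, to 0.689% ± 0.303 in E12.5-only and 0.240% ± 0.0453 in always open regions (positive in 6 of 6, exact p 0.0312). Set against all distal regions, the share with any overlap was 3.09% ± 0.610 in E12.5-only regions and 3.08% ± 0.341 in all (difference 0.0159 points, exact p 0.906), and with the centre base it was different by -0.315 points, lower in E12.5-only regions (6 of 6 libraries, exact p 0.0312). Against the distal regions open at E14.5 alone, whose median width of 1195 bp is close to that of E12.5-only regions, the shares with any overlap were 3.09% ± 0.610 and 4.73% ± 0.608 (SD, 6 libraries; difference -1.63 points, negative in 6 of 6, exact p 0.0312). The difference was -1.56 points with the centre base (6 of 6, exact p 0.0312) and -0.291 with 50% covered (3 of 6, exact p 0.312). Over the 21 such comparisons computed, with 7 classes under 3 rules of overlap, the Benjamini-Hochberg adjusted p of those at 0.0312 was 0.0547.

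The E12.5-only regions were spread over many genes. Each region was assigned to the smallest gene that holds its centre or else to the nearest gene within 1 Mb, which names a neighbour and not a target. Of 21631 protein-coding genes, 1273 (5.89%) received at least 1, and 1073 of these received 1, 157 received 2, 32 received 3 and 11 received 4 or more. Among the 11 were Plxna1 with 7, Prdm16 and Dnah8 with 6 each, Lingo1 and Zmiz1 with 5 each, and Kazn, Sdk2, Pax7, Notch1 and Tspan9 with 4 each.

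Plxna1 encodes a receptor for semaphorins, which steer axons and migrating neural crest cells. Its 7 regions lay among 49 regions of all lists. The peaks scored 287 in replicate 1 and 237 in replicate 2, then 210 and 364, 396 and 724, 342 and 272, 1091 and 370, 478 and 221, and 337 and 204, in order along chromosome 6. By rank within its list, the worse of the 2 ranks ran from 47.4% to 97.8%. Of the 7, 4 lay between chr6:89314874 and chr6:89324252, at and within one end of the gene, and the combined MC H3K27ac list covered all 7.

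Prdm16 encodes a zinc-finger regulator needed for palate closure. Its 6 regions all lay inside the gene, among 122 regions of all lists, of which 99 had a peak in E12.5 replicate 1 and 24 in replicate 2. The scores ran from 208 to 775 in replicate 1 and from 225 to 492 in replicate 2. All 6 were in the combined MC H3K27ac list and 3 in the FL list. Dnah8 encodes a dynein heavy chain of cilia and flagella, and 5 of its 6 regions were in neither H3K27ac list, with scores of 206 to 386 in replicate 2.

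Notch1, a receptor of signalling between neighbouring cells, had 3 E12.5-only regions inside the gene and 1 beyond it. The first, chr2:26457953-26458841, lay 51 bp from the 3′ end and scored 321 in replicate 1 and 393 in replicate 2. The others scored 474 and 255, 1131 and 346, and 402 and 205. All 4 were in the combined FL H3K27ac list and 3 in the MC list, and an E14.5 ATAC peak lay 280 to 974 bp from each. Over the 17 genes of the Notch list 5 had an E12.5-only region: the receptor Notch1, the ligands Dll1, Dll3 and Dll4, and the target Hey2. The 9 regions were 2.81% (1.49% to 5.26%) of the 320 regions assigned to the list, beside 0.980% over all genes. The Dll1 region lay 82284 bp from the gene, and the Hey2 regions 49613 and 134208 bp, so their assignment is by distance alone. The Dll4 region overlapped the gene and reached within 265 bp of its 3′ end, with scores of 687 in replicate 1 and 243 in replicate 2.

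Genes of the jaw and cranial neural crest had a share of E12.5-only regions whose interval includes that of all genes. Of 50 genes 12 had at least 1, or 24.0%, against 5.89% of all genes. Of the 1076 regions assigned to them 15 were E12.5-only, or 1.39% (0.847% to 2.29%), beside 0.980%. Dlx3, a homeobox gene of the distal jaw, teeth and skin, had 2 regions within 1 kb of its ends, with scores of 393 and 504 at chr11:95118339-95119508 and of 913 and 221 at chr11:95123302-95124907, given for replicate 1 and then replicate 2. Both were in the combined MC H3K27ac list and neither in the FL list. Barx1, a homeobox gene of molar and jaw mesenchyme, had 2 regions. The first lay 2011 bp upstream of Barx1, with 255 and 344, and the second 31648 bp downstream, with 280 and 335. Foxf1, a forkhead gene of Hedgehog-responsive mesenchyme, also had 2. Among those with 1 were Dlx4 with 752 and 206, the incisor and palate gene Msx1 with 378 and 205, Gsc with 200.2 and 308, Alx4 with 429 and 225, the neural crest factor Tfap2a with 244 and 203, Six2 with 323 and 349, Pax3 with 423 and 201 and Nkx2-3 with 290 and 254. Scores in replicate 2 thus ended near the floor of 200 for several of these regions. The Msx1 region had an E14.5 peak 328 bp away, and the Alx4 region 252 bp away.

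The epithelium and tooth list gave 5 of 31 genes and 5 of 340 regions (1.47%, 0.630% to 3.40%, an interval that includes the 0.980% over all genes), namely 4 keratins and P-cadherin. Krt14, a keratin of basal epithelial cells, had a region that includes its 5′ end, at chr11:100207373-100208903, with 435 in replicate 1 and 301 in replicate 2, in neither H3K27ac list. Krt15, another basal keratin, had 376 and 231 at a region 18 bp from a gene end, and Krt18, a keratin of simple epithelia, 410 and 284 at 948 bp from its 5′ end. Krt5, the partner of Krt14, had 219 and 294 at 9037 bp, and Cdh3, the gene of P-cadherin, 307 and 248 inside the gene. In each of the 5 an E14.5 ATAC peak was 644 bp or farther away.

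Cartilage genes, too, had a share of E12.5-only regions whose interval includes that of all genes. Of 24 genes 2 had a region, or 8.33%, against 5.89% of all genes. Of the 535 regions assigned to them 3 were E12.5-only, or 0.561% (0.191% to 1.64%), beside 0.980% over all genes. Matn1, which encodes the cartilage matrix protein matrilin-1, had 2 at 28823 and 108636 bp from the gene's nearer end, with 752 and 327, and 751 and 222. Wwp2, a ubiquitin ligase gene expressed in cartilage, had 1 near its 3′ end with 312 and 239. Sox9, the master regulator of cartilage, had none nearer than 772987 bp: of 479 regions within 2 Mb, 8 were E12.5-only (1.67%), and all 8 lay beyond the gene on the side of higher coordinates, 4 of them assigned to Sdk2, a cell adhesion gene. The strongest of the 8 by its worse rank, chr11:114047703-114048926 inside Sdk2, scored 435 in replicate 1 and 411 in replicate 2.

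Hypertrophy and bone genes showed the highest share, with 6 of 174 regions (3.45%, 1.59% to 7.32%, beside 0.980% over all genes) at 5 of 16 genes. These were Runx2, a regulator of osteoblasts, with 206 and 243, Alpl, an alkaline phosphatase, with 545 and 208, Dmp1, a matrix protein of osteocytes, with 309 and 346, Phex with 215 and 643, and Dlx3, which the jaw list holds as well. The Phex region is 1 of the 3 on X, 469563 bp from the gene, so the assignment is by distance alone. Limb patterning genes stood at 0.978% of 818 regions, close to the 0.980% over all genes. Their members lay at 6 of 34 genes, among them Tbx3 and Tbx4 with 2 each. No Hox gene had one: 0 of 110 regions at 39 genes, beside 0.980% of regions and 5.89% of genes over all genes. The limit that a count of 0 allows, 3 of 110, is 2.73% and the upper Wilson bound is 3.37%. Both lie above 0.980%, so the 0 does not set Hox genes apart.

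Among signalling lists, the Wnt list had 13 of 989 regions (1.31%, 0.770% to 2.24%) at 12 of 52 genes. The BMP, FGF and Hedgehog list had 14 of 1124 (1.25%, 0.743% to 2.08%) at 10 of 48, and both intervals include the 0.980% over all genes. Wnt1, a ligand of the midbrain and dorsal neural tube, had a region 808 bp from its 5′ end with 318 in replicate 1 and 278 in replicate 2 and an E14.5 peak 185 bp away. Wnt7b, an epithelial ligand, had 2, with 355 and 360, and 876 and 262. Of the Hedgehog genes, the receptor Ptch1 had 2 with 212 and 607, and 207 and 255, the transcription factor Gli2 had 2 with 201 and 271, and 475 and 286, and the co-receptor Boc had 2, with 335 and 206, and 501 and 584. The second Boc region, chr16:44550146-44551297, was in both H3K27ac lists, with an E14.5 peak 231 bp away.

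Lists of other tissues had members too. Skeletal muscle had 7 of 306 regions (2.29%, 1.11% to 4.65%), 4 of them at Pax7, a gene of muscle precursors and neural crest. The Pax7 regions scored 397 and 276, 357 and 202, 760 and 281, and 614 and 508 in replicate 1 and replicate 2. Schwann cell and glia genes had 5 of 196 (2.55%, 1.09% to 5.83%), of which 3 were assigned to Pou3f1 at 3104, 68463 and 200659 bp from its nearer end. Neuron genes had 6 of 551 (1.09%), among them Neurog1 with 438 and 336 and Neurog2 with 294 and 447, both proneural factors of sensory neurons. Endothelium had 5 of 263 (1.90%), blood and macrophages 3 of 155 (1.94%), the cell cycle 5 of 374 (1.34%), tendon 1 of 135 (0.741%) and reference genes 1 of 90 (1.11%). The intervals of 4 of the 17 lists lay above 0.980%: hypertrophy and bone, Notch, Schwann cell and glia, and skeletal muscle. They cover counting error only, neighbouring regions are not independent, and no list was tested.

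**Figure D5:**
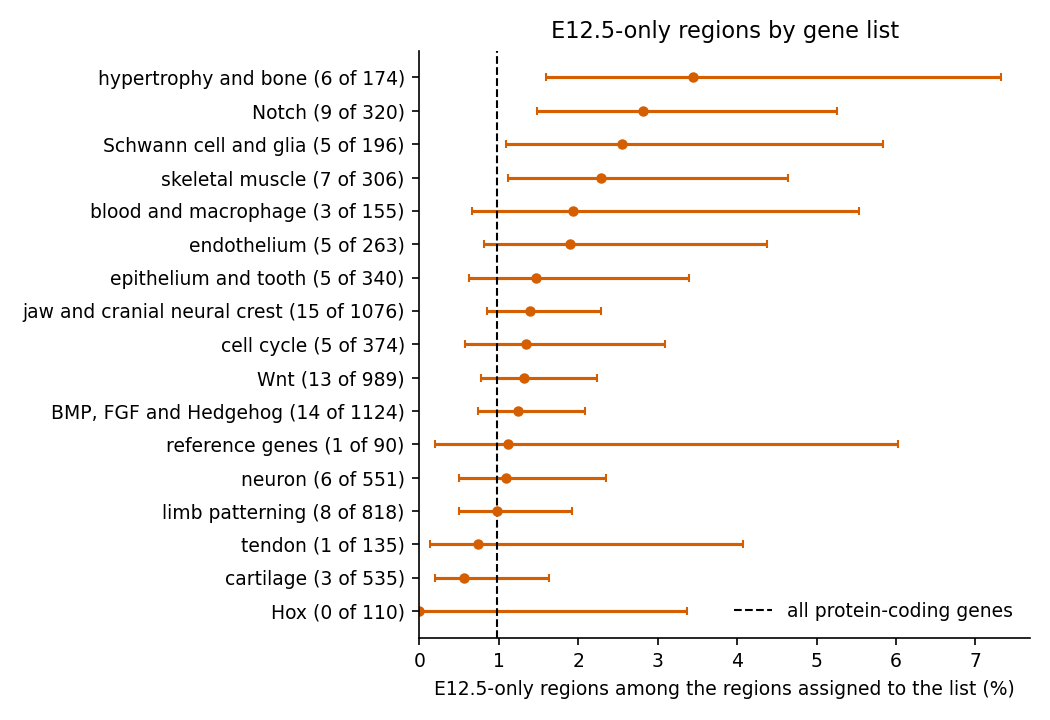
E12.5-only regions as a percent of the regions assigned to each of 17 gene lists (horizontal axis), with 95% Wilson intervals over regions and the counts in the labels. The dashed line is the 0.980% over all protein-coding genes, and most intervals include it.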

How the data were processed

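ATAC-seq and H3K27ac CUT&Tag peak lists of mouse embryos were used. Hi-C and 4C samples were left out. Per the submitters' processing notes, the tools were Trim Galore, Bowtie2, SAMtools, Genrich and SEACR, and the build mm10; versions and thresholds are not given in the sources used here. The deposited ATAC lists hold a peak score, with no value under 200, and a −log10 p value, and the deposited H3K27ac lists a total and a highest signal. Scores and signals ranked peaks within a list only. There is 1 list per library, and the authors' combined lists have no replicates. Read depth is unknown, so list length stands in its place and limits what absence of a peak can show.

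Peaks of the 8 ATAC lists were merged where they overlapped or touched, and regions were called by peaks per list. Overlap with other lists meant at least 1 bp unless another rule is named. Gene ends (1 kb, or 2.5 kb as an alternative) and spans came from 21631 RefSeq genes of GRCm38.p6; strand was known for 17274. The promoter windows used here hold none on chromosome 18, where 31 members lie. Shares carry 95% Wilson intervals. H3K27ac shares over libraries were compared by two-sided exact permutation and sign-flip tests. The merging and class steps were checked on simulated peaks. P-values measure the spread between libraries, which may be technical. No genome was used here, so base content was taken from promoter windows alone, not from all regions.

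The members, gene lists, named genes and tests were chosen with earlier results of these data known. Named regions are the 10 best by the worse of 2 ranks, those near Sox9 and those of the listed genes; named genes are those with the most members overall and per list. Genes at promoters shown as sequence, and several genes within lists, were picked after their values were seen. A few genes that the rule names are not reported here. Alternatives left out each library, equalised list lengths, and changed the overlap, gene end and H3K27ac rules. Same-numbered H3K27ac libraries share no stated source: over all regions their deviations from the group means correlated by -0.0013 to 0.0058. Software was matplotlib 3.10.9, scipy 1.17.1, pandas 2.3.3 and numpy 2.4.6 under Python 3.11.15.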

Additional observations from a re-analysis of the deposited data

How the results depend on the processing

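Leaving out each ATAC library in turn gave 1656 to 33185 E12.5-only regions, with 4.03% to 11.1% near a gene end, 18.0% to 86.5% in the combined E12.5 list, 0.0271% to 1.57% in the combined MC list, 0.0211% to 1.88% in the combined FL list, and distal shares of 32.2% to 66.2% in MC H3K27ac and 33.5% to 68.1% in FL H3K27ac. The low ends of the gene end, combined E12.5 and H3K27ac shares came without E12.5 replicate 1, where 17355 regions remained, and 33185 came without replicate 2. With 43205 peaks from every list, 328 regions met the rule: 13.4% near a gene end, 99.1%, 0% and 1.22% in the combined E12.5, MC and FL lists, and 68.0% of distal ones in MC H3K27ac. Requiring the E12.5 peaks to overlap by 50% of the shorter gave 88.5% in the combined E12.5 list and 0% in the combined FL list. With no E14.5 peak within 1 kb, 8.33% lay near a gene end, 0% in the combined MC list, 0% in the combined FL list, and 57.2% and 58.8% of distal ones in MC and FL H3K27ac. A gene end distance of 2.5 kb gave 19.4%. The better 50% of H3K27ac peaks by total signal held 53.3% in MC and 55.5% in FL.

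The single-library difference MC minus FL ran from -0.0977 (without MC H3K27ac replicate 2, the 1 setting of opposite sign) to 0.651 points when 1 ATAC or H3K27ac library was left out, with p above 0.05 in every setting. The replicate block, a sign-flip of the 3 same-numbered pairs, left it at 0.304 points with an exact p of 1. The difference of E12.5-only minus always open distal regions ran from -4.74 to -3.82 points when 1 library was left out; without 1 H3K27ac library the exact p was 0.0625, the smallest that 5 libraries allow. Covering 50% of the region turned it to 0.449 points; the cause was not tested. Base content of all E12.5-only regions was planned and not run, since no genome was used here.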
